A study of Drosophila melanogaster with 2 samples.

Results

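The genes described are 10 regulators of early neural development in Drosophila melanogaster: the achaete-scute genes ac, sc, l(1)sc and ase, the Snail family genes sna, esg and wor, the Hes-type gene dpn, and the Sox group B genes SoxN and D. They were listed by symbol and found in the Ensembl annotation of build dm6, 10 of 13945 protein-coding genes on the 6 main chromosome arms, and all 10 lie at the same positions in RefSeq. For each gene, every peak summit in the gene body plus 5 kb on each side (its window) was taken from 4 deposited peak lists. The peaks were called from ChIP-seq of the protein CG7745 in whole embryos aged 0 to 12 hours. ChIP-seq sequences the DNA that an antibody pulls down together with a protein. Most listed peaks fall outside the reproducible set described below, so a listed peak is not by itself proof of binding. The only group is a transgenic fly line with a stable CG7745 fusion carrying GFP at the C-terminus, with biological replicates 2 and 3 (n = 2), separate biosamples of that line. The labels name an antibody against GFP in the description and CG7745 in the antibody field. They give no second condition, no other genotype and no promoter for the transgene. Embryos were taken whole, so binding in neural cells and in other cells cannot be told apart.

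The proneural proteins Ac, Sc and L(1)sc are basic helix-loop-helix (bHLH) activators that pair with Daughterless, bind E-boxes and give groups of ectodermal cells the capacity to become neural. Neuroblasts that leave the neuroectoderm express Ase, a related bHLH factor, and Dpn, a bHLH repressor of the Hairy family that maintains their self-renewal. Sna, Esg and Wor are zinc finger repressors that act together in neuroblasts, and Sna also directs mesoderm formation. SoxN and D (Dichaete) are HMG-box factors that act with partly overlapping roles in the neuroectoderm.

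Each replicate's list and the list called on both replicates pooled held 30000 peaks. The reproducible set, selected by the irreproducible discovery rate (IDR), held 1874, all of them among the 1874 strongest of the pooled list. The signal is the authors' own value for each peak against a control, with no stated scale, and ranks run from 1, the strongest, over nuclear peaks. Read depth is unknown from these files, and the intervals given cover the counting of peaks or genes alone.

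The sequences around the summits that the results turn on are shown first, chosen after their values were seen: the strongest pooled summits of D, sna, SoxN and wor, and the summits close before the starts of sc and ac. Each is a summit of the pooled list with 50 bases on each side, from Release 6 of the genome (build dm6, RefSeq copy), written 5′ to 3′ on the strand of the gene named. Capitals mark E-boxes (CANNTG), the Zelda-type site CAGGTAG and the Sox core ACAAT, on either strand. None of these windows overlaps an annotated untranslated region.
D, the summit past its 3′ end (chr3L:14174317-14174417, minus strand): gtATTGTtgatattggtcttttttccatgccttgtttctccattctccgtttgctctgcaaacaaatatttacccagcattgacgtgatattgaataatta
sna, the promoter summit (chr2L:15478282-15478382, minus strand): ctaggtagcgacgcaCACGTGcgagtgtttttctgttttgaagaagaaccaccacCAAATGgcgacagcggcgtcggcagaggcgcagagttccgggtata
SoxN, the downstream summit (chr2L:8832919-8833019, plus strand): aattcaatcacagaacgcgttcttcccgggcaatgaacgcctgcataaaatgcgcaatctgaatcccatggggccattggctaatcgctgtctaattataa
wor, the upstream summit (chr2L:15425940-15426040, minus strand): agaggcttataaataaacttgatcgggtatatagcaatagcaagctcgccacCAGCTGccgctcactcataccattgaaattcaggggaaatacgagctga
sc, the promoter summit (chrX:395889-395989, plus strand): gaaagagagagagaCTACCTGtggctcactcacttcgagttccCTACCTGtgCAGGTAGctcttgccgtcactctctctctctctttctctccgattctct
ac, the summit nearest its start (chrX:369816-369916, plus strand): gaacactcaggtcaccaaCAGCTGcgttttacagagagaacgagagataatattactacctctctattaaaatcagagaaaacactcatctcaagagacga

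These genes carried many summits, most of them weak, as in the pooled list as a whole. Of their 59 pooled summits, 50 ranked after 7500, against 20346 of 27153 in the windows of all coding genes. A single IDR summit lay in the 10 windows, beside D, so 1 of 10 genes had one (10%, exact 95% interval 0.253 to 44.5%), against 20.4% of all protein-coding genes (2848 of 13945), a share within that interval. None had an IDR summit within 500 bp of its transcription start site (TSS), with an exact interval of 0 to 30.8%. That interval holds the 6.32% of all coding genes. In the pooled list all 10 genes had a summit in the window (exact interval 69.2 to 100%), against 75.2% of coding genes, a share within that interval. Within 500 bp of a TSS, 9 had a pooled summit (exact interval 55.5 to 99.7%), against 46.7%. The exception was l(1)sc, whose nearest pooled summit lay at -562 bp, upstream of its start. Replicate 3 alone had 2 summits within 500 bp of that start, and replicate 2 had none. For sc, which is among the 9, replicate 3 had 1 summit within 500 bp of the TSS and replicate 2 had none.

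By length, the windows held pooled summits at 4.82 per 10 kb (59 summits in 122.5 kb), against 2.44 per 10 kb in the windows of all coding genes with each base and summit counted once. Split by strength, summits ranked 1 to 7500 lay at 0.735 per 10 kb in the 10 windows (9 summits), against 0.611 in all windows. Summits ranked after 7500 lay at 4.08 per 10 kb (50 summits), against 1.83. IDR summits lay at 0.816 per 100 kb of the 10 windows, a value that rests on 1 summit, against 1.53 per 100 kb. The greater density was thus found among the weaker summits, and the median pooled summit of these genes ranked 17043 with a signal of 41.1, against a signal of 44.3 for the median of all 30000.

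The same density was seen in each replicate alone. Replicate 2 had 57 summits in the 10 windows (4.65 per 10 kb, against 2.45 in all windows), and replicate 3 had 60 (4.9 per 10 kb, against 2.45). Counting only pooled summits with a summit within 100 bp in both replicates left 18 (1.47 per 10 kb, against 0.807). Coding exons hold few summits in these data and made up 12.3% of the 10 windows, against 20.5% of all windows. Outside them the density was 5.31 per 10 kb, against 2.73. Some summits stand in close pairs. With summits within 250 bp of the one before counted once, a count added after seeing the data, 50 remained (4.08 per 10 kb, against 2.18). No test was run on these densities, because the genes were listed with earlier results of these data known.

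**Figure D1:**
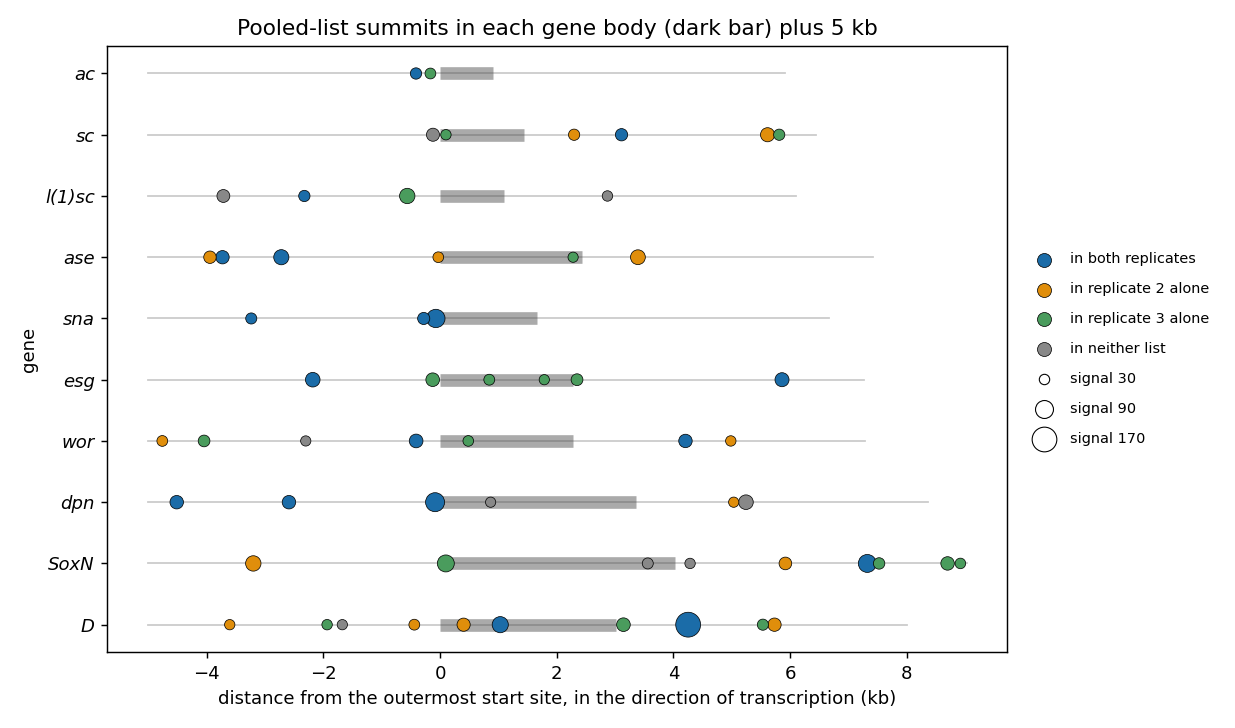
Position of every pooled summit (points) along the window of each gene, in kb from the outermost TSS in the direction of transcription, with the gene body as a dark bar, the point area growing with the authors' signal and the colour giving the replicates with a summit within 100 bp. The largest point is the D summit of signal 172.1 past the gene's 3′ end, and the promoter summits of dpn (100.6) and sna (94.0) sit beside their starts.

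The achaete-scute genes lie together on the X chromosome. None of the 4 had an IDR summit (exact interval 0 to 60.2%), against 12.8% of coding genes on X, a share within that interval. Over the whole stretch from 5 kb before ac to 5 kb past ase (chrX:365031-468176, 103.1 kb), the pooled list had 34 summits, the strongest with a signal of 65.8, and the IDR set had none. In the windows of coding genes on X, IDR summits lay at 0.846 per 100 kb. The nearest IDR summit on the ase side lay 25.9 kb beyond that stretch, at -517 bp from the TSS of CG17778. Within the 4 windows alone the density of pooled summits was 3.92 per 10 kb, against 2.12 per 10 kb in the windows of coding genes on X. All 18 of these summits also fall within the long annotated span of another gene, CG32816, but the nearest protein-coding TSS of each is that of its own achaete-scute gene.

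The gene ac (FBgn0000022, chrX:370031-370947) had the fewest pooled summits of the 10 and the lowest best signal. Its 2 pooled summits lay at -412 bp (signal 35.9, rank 21297) and -165 bp (signal 32.6, rank 24822). The first was found in both replicates, at rank 26213 in replicate 2 and 28632 in replicate 3, close to the end of both lists. The second had a match in replicate 3 alone, and its window, shown above, holds the E-box CAGCTG.

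At sc (FBgn0004170, chrX:396060-397497), 6 pooled summits were spread over the start and the sequence past the gene. The strongest lay 5614 bp downstream of the TSS (signal 55.5, rank 9824), matched in replicate 2 at rank 10619 and without a match in replicate 3, whose nearest summit was 200 bp away. The promoter summit at -121 bp (signal 47.7, rank 13146) had no summit within 100 bp in either replicate. The nearest replicate 3 summit, 193 bp away at 72 bp downstream of the start (signal 38.6, rank 8936), matched another pooled summit of sc, 29 bp from it (signal 30.2, rank 27773). In sequence, the window at -121 bp held 3 copies of CAGGTAG, the site of the early pioneer factor Zelda, and 9 matches to GAGAG, some of them overlapping, the type bound by GAGA factor.

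The strongest summit of l(1)sc (FBgn0002561, chrX:409721-410817) lay at -562 bp with a signal of 65.8 (rank 7009), the highest of the 4. Replicate 3 had it at rank 5011, whereas the nearest replicate 2 summit was 253 bp away and ranked 20601. Of the gene's other 3 pooled summits, the one at -2326 bp was found in both replicates.

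Around ase (FBgn0000137, chrX:460747-463176), the 6 pooled summits lay mainly away from the start. The strongest, at -2721 bp (signal 63.9, rank 7403), was in both replicates, at rank 12228 in replicate 2 and 7542 in replicate 3. The next, 3392 bp downstream of the TSS, ranked 4256 in replicate 2 with a signal of 38.6, but the nearest replicate 3 summit was 1128 bp away. A summit at -30 bp was weak (signal 32.1, rank 25425) and matched in replicate 2 alone.

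The Snail family genes lie in one region of chromosome arm 2L. None of the 3 had an IDR summit in its window, against 20.4% of all coding genes, and 3 genes are too few to set apart from that share. Their strongest pooled signals were 94.0 for sna, 59.4 for esg and 52.3 for wor. In the windows of autosomal coding genes, pooled summits lay at 2.51 per 10 kb and IDR summits at 1.68 per 100 kb. From 5 kb before esg to 5 kb past sna (chr2L:15328866-15483260, 154.4 kb), the pooled list had 51 summits (3.3 per 10 kb) and the IDR set had 1. That IDR summit (chr2L:15442399-15442794, signal 160.6, rank 1031) lay 17 kb upstream of wor and 34 kb downstream of sna, 9288 bp downstream of the nearest coding TSS, that of CG4161. Another IDR summit, 9.6 kb upstream of esg, had a signal of 145.5 and ranked 1269, with the TSS of nht as the nearest.

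The 3 pooled summits of sna (FBgn0003448, chr2L:15476593-15478260) were all upstream, at -72 bp (signal 94.0, rank 3308), -280 bp (signal 41.1, rank 17043) and -3236 bp (signal 34.3, rank 23004). All 3 were found in both replicates, as for no other of the 10 genes, although the last lies as near to the TSS of Tim17b2, at -3233 bp. The first ranked 1940 in replicate 2 (signal 53.6) and 7485 in replicate 3 (signal 42.1), so replicate 2 placed it just outside its 1874 strongest and replicate 3 well below them. The window at that summit holds 2 E-boxes, CACGTG and CAAATG.

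At esg (FBgn0287768, chr2L:15333866-15336138), the strongest of 6 pooled summits lay at -2182 bp (signal 59.4, rank 8590), at rank 6463 in replicate 2 and 27746 in replicate 3. The summit at -126 bp (signal 51.7, rank 11300) ranked 8265 in replicate 3, and the nearest replicate 2 summit, 109 bp away, just missed the distance for a match. A summit 5862 bp downstream of the start (signal 54.8) was in both replicates. For wor (FBgn0001983, chr2L:15423297-15425580), 2 of 7 pooled summits were in both replicates, at -410 bp (signal 52.3, rank 11043) and 4207 bp downstream (signal 50.3, rank 11934). The first ranked 22786 in replicate 2 and 9385 in replicate 3, and its sequence holds the E-box CAGCTG. The second lies nearer to the TSS of CG44869, at -3012 bp, and 4 of the 7 lie nearer to CG44869 or CG4161 than to wor.

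The gene dpn (FBgn0010109, chr2R:8228971-8232330) had the strongest promoter summit of the 10, at -85 bp with a pooled signal of 100.6 (rank 2865), under the lowest IDR signal of 121.7. Replicate 2 placed it at rank 1257 with a signal of 64.0, and replicate 3 at rank 10105 with a signal of 36.4. The replicates thus agreed on its position, 34 and 14 bp from the pooled summit, and not on its standing. Of the other 5 pooled summits, those at -2590 and -4514 bp were also in both replicates, but they lie nearer to the TSS of pnut, a septin gene, at -2351 and -427 bp. The pair downstream of dpn (signals 59.5 and 29.3) lies nearest to CG34217.

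In the pooled list the Sox genes were the most densely covered of the 10, SoxN at 6.42 and D at 7.69 summits per 10 kb, above 88.7% and 94.8% of coding genes. In replicate 3 alone SoxN (4.99 per 10 kb) and D (6.15) were less dense than esg (7.33) and l(1)sc (6.31). SoxN (FBgn0029123, chr2L:8825645-8829670) had 9 pooled summits. Its strongest lay 7324 bp downstream of the TSS, past the 3′ end (signal 89.6, rank 3655), and the replicates placed it far apart, at rank 22811 in replicate 2 (signal 16.7) and 1785 in replicate 3 (signal 80.9). The next, 99 bp downstream of the start in the 5′ UTR, had a signal of 80.4 (rank 4600) and ranked 3491 in replicate 3. Replicate 2 had separate summits on both sides of it, the nearer 188 bp away. The summit at -3201 bp (signal 66.0) showed the opposite pattern, with rank 2428 in replicate 2 and the nearest replicate 3 summit 3089 bp away. Just 1 of the 9 SoxN summits was therefore in both replicates.

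D (FBgn0000411, chr3L:14175610-14178620) had 10 pooled summits, more than any other of the genes, and the one IDR summit. That summit (peak chr3L:14174169-14174564, signal 172.1, rank 890) lay 3170 bp downstream of the nearer TSS, 1243 bp past the 3′ end of the gene, with no other annotated gene over it. It ranked 833 in replicate 2 (signal 75.4) and 1814 in replicate 3 (signal 80.1), inside the strongest 1874 of both. Of all coding genes, 11.5% had a stronger best summit in their windows. The next D summit, at -51 bp from the inner of its 2 TSS (signal 72.7, rank 5736), was also in both replicates, at rank 13040 in replicate 2 and 4253 in replicate 3. The other 8 ranged in signal from 29.6 to 51.8, and none of them was in both replicates.

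Ordered by strongest pooled signal, D (172.1) was followed by dpn (100.6), sna (94.0), SoxN (89.6), l(1)sc (65.8), ase (63.9), esg (59.4), sc (55.5), wor (52.3) and ac (35.9). Their median was 64.8, against 82.6 for coding genes with a pooled summit in the window. With 2 libraries whose signals have no stated scale, no spread can be set on these values, and the order differed between the replicates beyond neighbouring places. In replicate 2 the best signal of l(1)sc was 17.8 and that of dpn 64.0, whereas in replicate 3 l(1)sc had 50.8 and dpn 40.1. SoxN (80.9, rank 1785) stood above D (80.1, rank 1814) in replicate 3, while D (75.4) stood above SoxN (48.8) in replicate 2. Density gave another order, with 4.86 summits per 10 kb as the median of the 10, against 2.53 for all coding genes. Of the 10, ac at 1.83 per 10 kb was alone under that median, and sna at 2.57 was close to it.

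**Figure D2:**
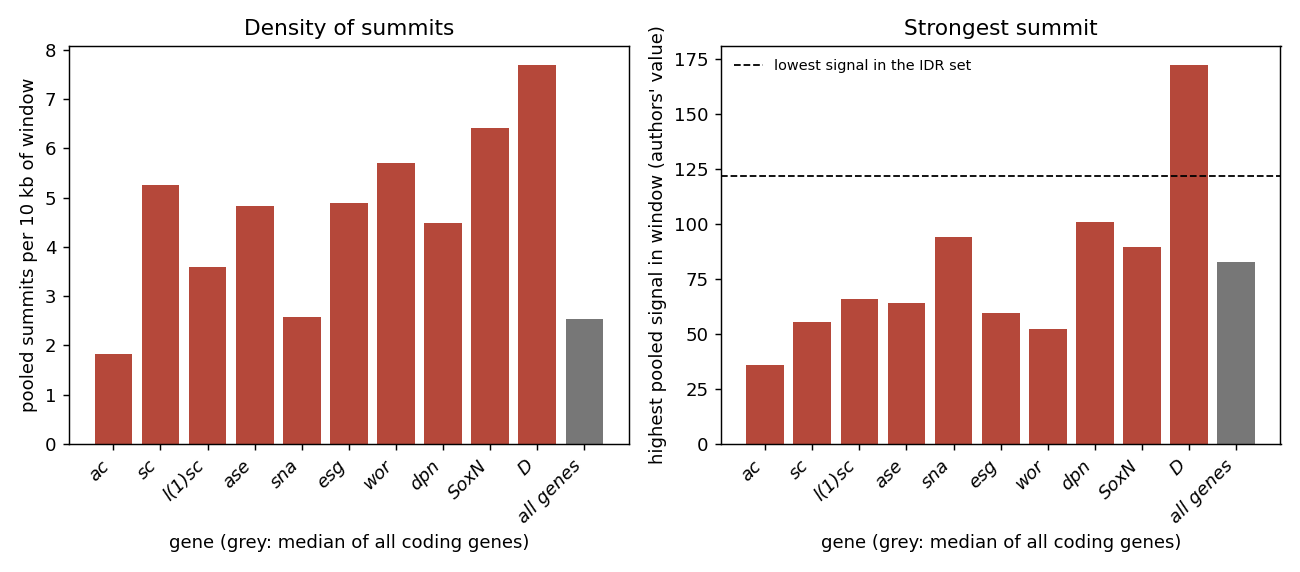
Pooled summits per 10 kb of window (left) and the highest pooled signal in the window (right, the authors' value) for each gene, with the median of all coding genes in grey (right: of those with a summit) and the lowest IDR signal as a dashed line. Of the 10 genes, 9 exceed the grey bar in density, whereas 4 exceed it in signal and D alone passes the dashed line at 121.7.

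The replicates agreed on the position of these summits about as often as elsewhere in the list. Both replicates had a summit within 100 bp of 18 of the 59 pooled summits (30.5%, exact interval 19.2 to 43.9%), against 33% of all 30000. Replicate 2 alone matched 14, replicate 3 alone 18, and neither matched 9. By rank, 6 of 9 summits ranked 1 to 7500 were in both replicates (66.7%), against 77.1% of all summits of those ranks. At ranks 7501 to 15000 the share was 7 of 18 (38.9%), against 37.9%. It was no lower at ranks 15001 to 22500, with 4 of 10 (40%, interval 12.2 to 73.8%), against 13.7% of all summits. After rank 22500 it was 1 of 22 (4.55%), against 3.28%. Summits of 1 gene are not independent, and both replicates were called against the same control, so the intervals understate the uncertainty.

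**Figure D3:**
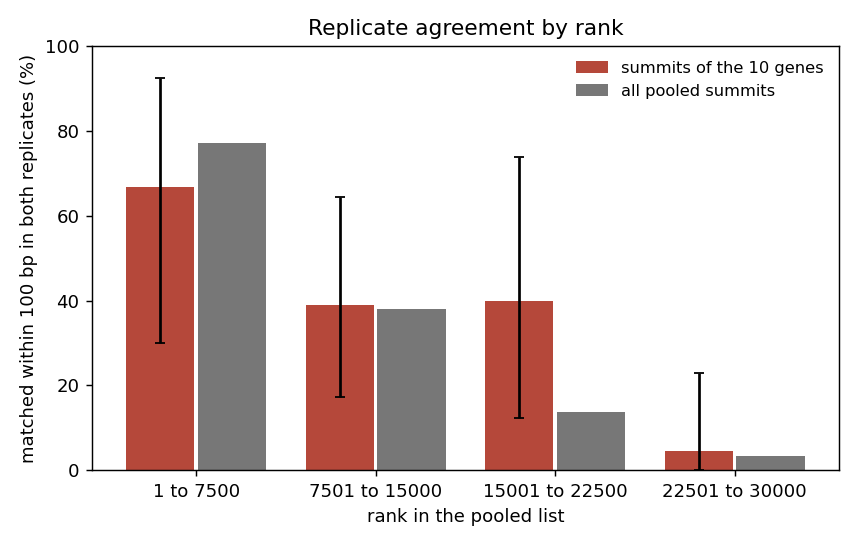
Share of pooled summits with a summit within 100 bp in both replicates, by rank in the pooled list, for the 10 genes (red, with exact 95% binomial intervals) and for all pooled summits (grey). The shares are 66.7% and 77.1% in the first rank group and 4.55% and 3.28% in the last, and each interval holds the grey value, at ranks 15001 to 22500 by a narrow margin (lower bound 12.2%, grey value 13.7%).

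Taking the 1874 strongest nuclear peaks of each replicate in place of the IDR set gave 2 of the 10 genes from replicate 2, D and dpn, against 20.0% of coding genes. Replicate 3 also gave 2 of 10, D and SoxN, against 20.7%. D was thus the gene that both replicates placed among their strongest, and dpn and SoxN each rested on 1 replicate. Each of these shares lay close to the one over all coding genes.

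**Figure D4:**
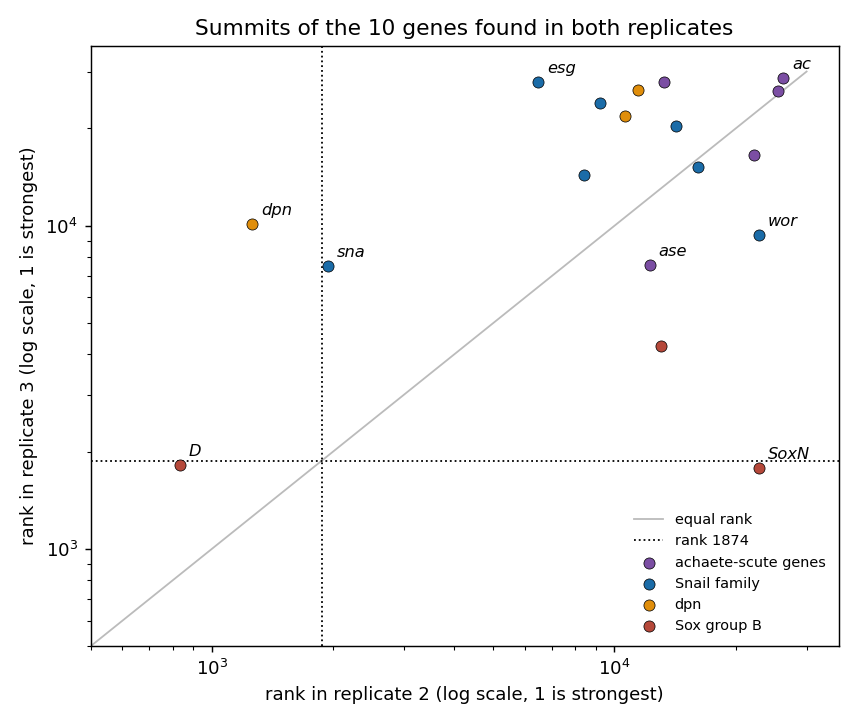
Rank in replicate 2 (x axis, log scale) against rank in replicate 3 (y axis, log scale) of the 18 summits found in both, coloured by gene family, with the strongest summit of a gene named and dotted lines at rank 1874. The D summit alone is inside both lines, at 833 and 1814, while dpn (1257 and 10105) and SoxN (22811 and 1785) are each inside 1.

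In position, 27 pooled summits lay upstream of the genes, 22 downstream and 10 in the gene bodies. Of those in bodies, 4 were in 5′ UTRs, 3 in 3′ UTRs, 2 in coding exons (of esg and wor) and 1 in an intron (of dpn). Per length the bodies held 4.44 summits per 10 kb and the flanks 4.9, against 2.31 and 3.08 for all coding genes, where bases shared by windows count for each gene. Within 500 bp of a TSS of the 10 genes lay 15 of the 59 summits (25.4%, exact interval 15 to 38.4%), against 26.3% of all pooled summits within 500 bp of any coding TSS. The 15 leave out the summit in the dpn window at -427 bp from the TSS of pnut, which counts among the 26.3%.

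Motifs were searched on both strands in the same windows, 50 bases to each side, at all 59 summits. Any E-box (CANNTG) was in 26 windows (44.1%, exact interval 31.2 to 57.6%), against 41.4% of all pooled and 39.2% of all IDR windows. The E-box types, which are counted within CANNTG too, were rare: CAGGTG, the type bound by Snail proteins, was in 2 windows (3.39%, against 3.48% of pooled windows), CAGCTG in 2 (3.39%, against 5.07%) and CACGTG in 1 (1.69%, against 1.38%). GAGAG was in 13 windows (22%, interval 12.3 to 34.7%, against 14.2%) and ACAAT in 9 (15.3%, interval 7.22 to 27%, against 24.9%). CAGGTAG was in 2 windows, the promoters of sc and dpn (3.39%, interval 0.413 to 11.7%), against 0.637% of pooled windows, which lies within the interval. The element TATCGATA was in none, against 0.82%. Base composition was alike, with a mean GC content of 42.6% in these windows and 42.4% in all pooled ones.

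Among 38 other genes, 14 had an IDR summit in the window (36.8%, exact interval 21.8 to 54%), against the 20.4% of all coding genes. The 38 were neural regulators and further Sox and Snail family genes, listed from knowledge of the field with earlier results of these data known. Their windows were longer, with a median of 17.4 kb, against 12.2 kb for all coding genes and 12.3 kb for the 10 genes above. Per length they held IDR summits at 2.56 per 100 kb and pooled summits at 4.43 per 10 kb, with shared bases counted for each gene. Counted that way, all coding genes held pooled summits at 2.31 per 10 kb in bodies and 3.08 in flanks. No IDR density over all coding genes is given by that count. The density of pooled summits in the 38 windows was close to the 4.82 of the 10 genes. The IDR value of the 38 stands beside 0.816 per 100 kb for the 10, which rests on 1 summit. No test was run on this difference.

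The strongest of these summits lay at neur (signal 370.9, rank 153), a ubiquitin ligase gene of Notch signalling, at numb (326.3), whose product is inherited by 1 daughter of an asymmetric division, and at grh (320.8, rank 210), the last of the temporal factors of neuroblasts. The numb summit lay at -230 bp and that of grh 271 bp downstream of the start. Summits of elav (299.0), a pan-neuronal RNA-binding protein gene, and of emc (177.6), an inhibitor of proneural bHLH proteins, lay at -236 and -66 bp. The others with an IDR summit were brat (238.2), a translational repressor that limits self-renewal, the POU factor gene nub (237.4), svp (205.6), the Sox gene Sox14 (176.8), pros (172.5), which drives differentiation of neuroblast daughters, Kr (159.4), Kah (154.0), a Snail-type zinc finger gene, Dr (150.9) and nerfin-1 (141.2). For 9 of the 14, a summit of the IDR set was at most 500 bp from a start of the gene. Among all 13945 coding genes, 2848 had an IDR summit in the window. Of those 2848, 881 (6.32% of the 13945) had one that close to a start. These counts were not tested against each other. The bHLH partner gene da had 13 pooled summits, the strongest at a signal of 79.4, and no IDR summit. The proneural gene ato had 3, with 32.1 as the highest signal, and amos had 1, at 67.1. For cato and pon the pooled list had no summit in the window.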

How the data were processed

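ChIP-seq peak lists of 2 libraries, biological replicates 2 and 3 of 1 group, were taken as deposited by the authors. Per the labels and the file lists that came with the samples, the authors called peaks on each replicate and on both pooled, against 1 control on dm6, and made the IDR set out of the 3 resulting lists. The sources used here name neither the caller and its version nor the IDR threshold. The deposited signal and summit offset of each peak were used, and the deposited −log10 q-value was not. Mitochondrial peaks were left out, which removed peaks from replicate 2 alone and left 29981.

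Genes came from Ensembl release 115 (FlyBase 6.54) and sequence from RefSeq's Release 6 genome; no peak reached past a chromosome's end. Counts, densities, matches within 100 bp, exact (Clopper-Pearson) 95% intervals and motif matches were computed with SciPy 1.17.1, pandas 2.3.3 and NumPy 2.4.6 in Python 3.11.15 (figures: matplotlib 3.10.9), and the counting code was tested on simulated data. All 10 genes are named, with every IDR summit and the strongest pooled summits of each. The windows printed are a selection by strength or place at a start, chosen after their values were seen, and leave out the dpn promoter. Genes, lists and motifs were chosen with earlier results of these data known, so no p-values are given. Alternatives were other flanks, distances and window sizes, each replicate alone and the stronger 937 IDR peaks.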

Additional observations from a re-analysis of the deposited data

How the results depend on the processing

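With a flank of 10 kb, 2 genes had an IDR summit in the window (2 summits in all), esg joining D. No share of all coding genes is given at that flank, and a longer window cannot lower it. Taking the strongest peaks of 1 replicate alone gave 2 genes and 2 summits for either replicate, against 20.0% (replicate 2) and 20.7% (replicate 3) of coding genes. The pooled summits numbered 35 with a flank of 2 kb and 109 with one of 10 kb, as a shorter or longer window must hold fewer or more. Requiring a match within 50 bp lowered the share found in both replicates to 16.9%, and 9 pooled summits lay within 250 bp of a TSS. No share over all pooled summits is given at those distances. With either replicate's own list, the summits in the windows numbered 57 to 60 and those within 500 bp of a TSS 13 to 15. The remaining alternatives, including the stronger 937 IDR peaks, overlap of peak intervals, merged summits, a 200 bp match and a 1000 bp promoter, moved no count by over 1.5 times and no share outside its interval. With 30 and 100 bases on each side of the summit, E-boxes were in 30.5% and 71.2% of windows, against 26.9% and 65.5% of all pooled windows. ACAAT was in 5.08% and 42.4%, against 15.6% and 43.7%, where 15.6% lies above the interval of 1.06 to 14.1%. CACGTG was in 0% and 8.47% (5 windows, interval 2.81 to 18.7%), against 0.783% and 2.78%, where 2.78% lies just below the interval. Longer windows hold more letters in both sets, and no test was run on these shares. No paired analysis was possible because the series has 1 group. Depth is unknown, so a summit listed in 1 replicate and missing from the other cannot be told from one that fell just short of the list's length.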
